A study of Saccharomyces cerevisiae with 12 samples.

Results

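The ATG genes of Saccharomyces cerevisiae encode the core machinery of autophagy and the receptors that select its cargo. Members were all genes whose standard name is ATG followed by a number. The RefSeq annotation of strain S288C holds 37 of them, and 36 had a row among the 5994 open reading frames of the deposited table. ATG44 was not analysed here. VPS30 (also known as ATG6) and SNX4 (also known as ATG24) carry other standard names and are given with the partner genes further on.

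Autophagy encloses cytoplasm or chosen cargo in a double membrane, the autophagosome, which fuses with the vacuole, where the contents are broken down. In growing yeast the TORC1 and protein kinase A pathways hold the process at a low level, and starvation releases it. A related constitutive route, the cytoplasm-to-vacuole targeting pathway, uses much of the same machinery to carry hydrolases such as aminopeptidase I and alpha-mannosidase into the vacuole.

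Expression in a hal4hal5 mutant was compared with that in the wild type of the same background on 12 two-colour arrays. The mutant lacks HAL4 (standard name SAT4) and HAL5, which encode related protein kinases known for their role in potassium uptake. The 3 sets of 4 arrays were the BY4741 background in YPD rich medium at pH 4.5, the W303 background in the same medium at pH 4.5, and W303 in YPD at pH 6.0, all grown at 28 °C into log phase. Arrays of a set are biological replicates, as the design text has it. No source used here says how many clones stand behind each strain, or whether 1 wild-type culture served several arrays.

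Each value is read here as the log2 ratio of mutant over wild type, with the sign turned on the 5 arrays that carried the mutant in Cy3. No source used here states the base of the logarithm, and base 2 was chosen because the values span -7.15 to 5.55, so a natural logarithm cannot be told apart. The direction rests on the deleted genes, since SAT4 was below 0 on 9 of the 10 arrays with a value for it, and HAL5 was below 0 on 9 of 11. The sizes were small for genes that the mutant lacks. HAL5 had means of -0.50 in BY4741 (adjusted p = 0.027), -0.10 in the W303 pH 4.5 set and -0.03 at pH 6.0, the last pair not called. SAT4 had -0.17 (adjusted p = 0.028) and -0.46 (not called) in the W303 sets, and reached 0.62 on 1 array. The call on HAL5 in BY4741 ended without replicate 1, 3 or 4. That on SAT4 in the W303 pH 4.5 set ended without replicate 3 or 4. No source used here says whether the probes lie within the deleted parts, so neither the direction nor the genotype has a firmer check than these signs. Arrays held between 4418 and 5696 values, with 21 to 35 of the 36 ATG genes. Arrays of a set correlated with medians of 0.62 (BY4741), 0.91 (W303 pH 4.5) and 0.49 (W303 pH 6.0). Replicate 3 of the pH 6.0 set stood apart, with a mean correlation of 0.19 to the other arrays of its set. The standard deviation over all genes of an array was 0.36 to 0.44 (BY4741), 0.55 to 0.61 (W303 pH 4.5) and 0.39 to 0.67 (W303 pH 6.0). No scanner intensities were used, so signal over background is unknown, and the number of arrays limits the precision. A gene is called higher or lower here where limma gave an adjusted p below 0.05, with adjustment across every gene tested in that set, and p-values measure the spread between these arrays.

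ATG8, the ubiquitin-like protein that coats the growing autophagosome, was the ATG gene with the highest mean ratio in both sets at pH 4.5. It was 4.21-fold higher in the mutant in W303 and 2.2-fold higher in BY4741. ATG34, the receptor for alpha-mannosidase, was likewise higher in both. ATG19, the receptor for aminopeptidase I, was 2.71-fold higher in the W303 pH 4.5 set and was not called in BY4741. At pH 6.0 none of the 23 ATG genes tested was called, beside 3.36% of all genes, and ATG34 had too few values there for a test.

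In BY4741 at pH 4.5, 32 ATG genes had the 3 values needed for a test, and 6 of them were called, or 18.8%, against 31.4% of all 5461 genes tested. ATG8, ATG34, ATG42, ATG3 and ATG41 were higher, which is 15.6% of the members against 15.9% of all genes. ATG1 was lower, which is 3.12% against 15.4%. The median of the members was 0.03, beside -0.01 for all genes. The share of members called was thus below the background in this set, and their count of higher genes was close to it.

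In the W303 pH 4.5 set, 33 ATG genes were tested and 23 were called, or 69.7%, against 69.2% of all 5501 genes. The share called was that of the background, and the members differed from it in the split of the directions. Higher calls made up 57.6% of the members and 36.1% of all genes, while lower calls made up 12.1% and 33.1%. The 19 higher members had means from 0.18 to 2.07, and the 4 lower members were ATG22, ATG15, ATG45 and ATG5. The median of the members was 0.46 and that of all genes 0.03. That median lies beside a gap between 0.25 and 0.46 in the ordered means, and it was 0.18 when only the 29 members with values on all 4 arrays were used. On replicate 2, the 1 array with the mutant in Cy3, the members measured had a median of 0.125, against 0.41 to 0.43 on the other arrays. There 62.1% of the members were above 0, beside 50.3% of all genes.

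In the W303 pH 6.0 set, limma called 0 of the 23 ATG genes tested, against 3.36% of all 4856 genes. An unadjusted p below 0.05 was reached by 2 of them, ATG8 and ATG20, and one-class SAM, the method named in the design text, also called 0. The median of the members was 0.04, beside 0.01 for all genes. A further 13 members had fewer than 3 values, among them ATG34, ATG14, ATG9 and ATG1, and are not covered by that count. Over the 3 sets, 21 members were called in 1 set, 4 in both sets at pH 4.5 and 11 in none, where the last group includes ATG16, which had a single value and was tested in no set. The shares of all genes called were 31.4% in BY4741, 69.2% in the W303 pH 4.5 set and 3.36% at pH 6.0. The overlap of calls over all genes is not given here, so these counts have no background of their own.

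**Figure D1:**
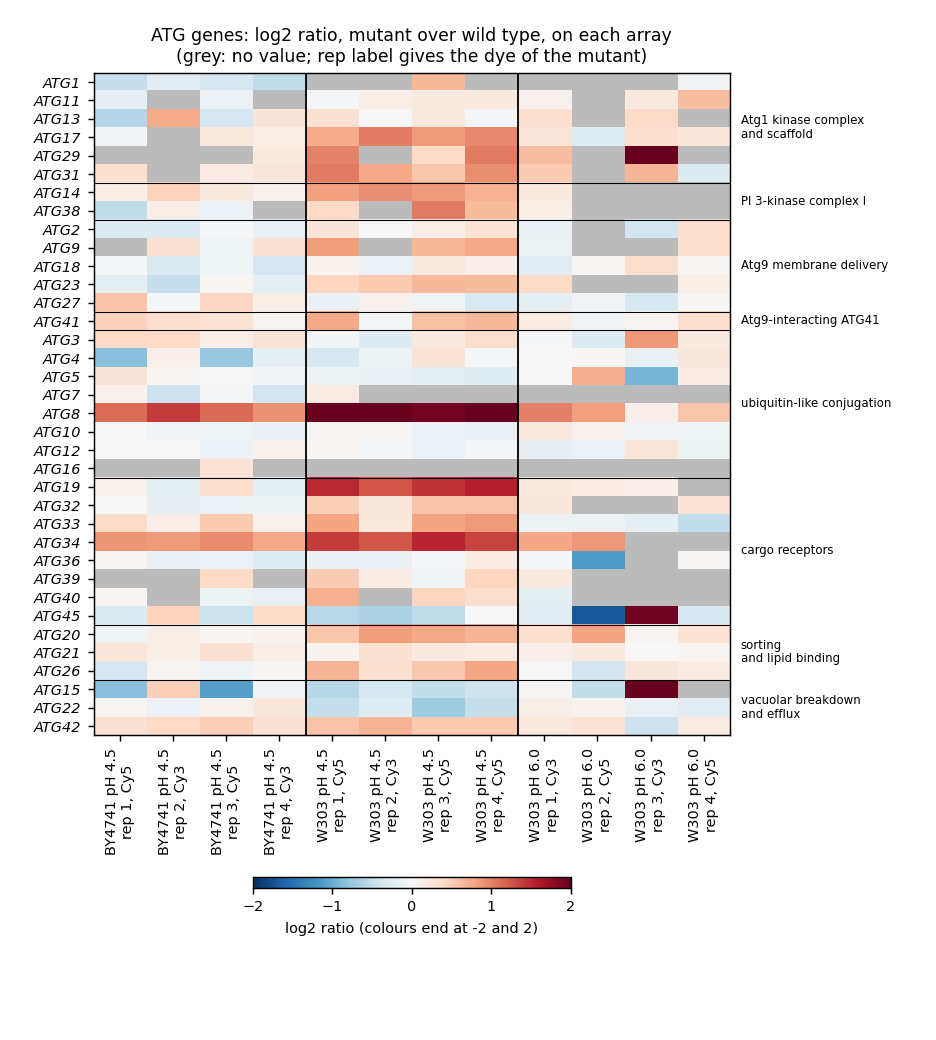
Log2 ratio of mutant over wild type for the 36 ATG genes (rows, grouped by role) on each of the 12 arrays (columns, with the dye of the mutant). Colours run from -2 (blue) to 2 (red) and values beyond are drawn at the end colour; grey marks no value. ATG8 is above 0 on all 12 arrays, while ATG15, ATG29 and ATG45 each have a dark red cell on replicate 3 of the pH 6.0 set.

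**Figure D2:**
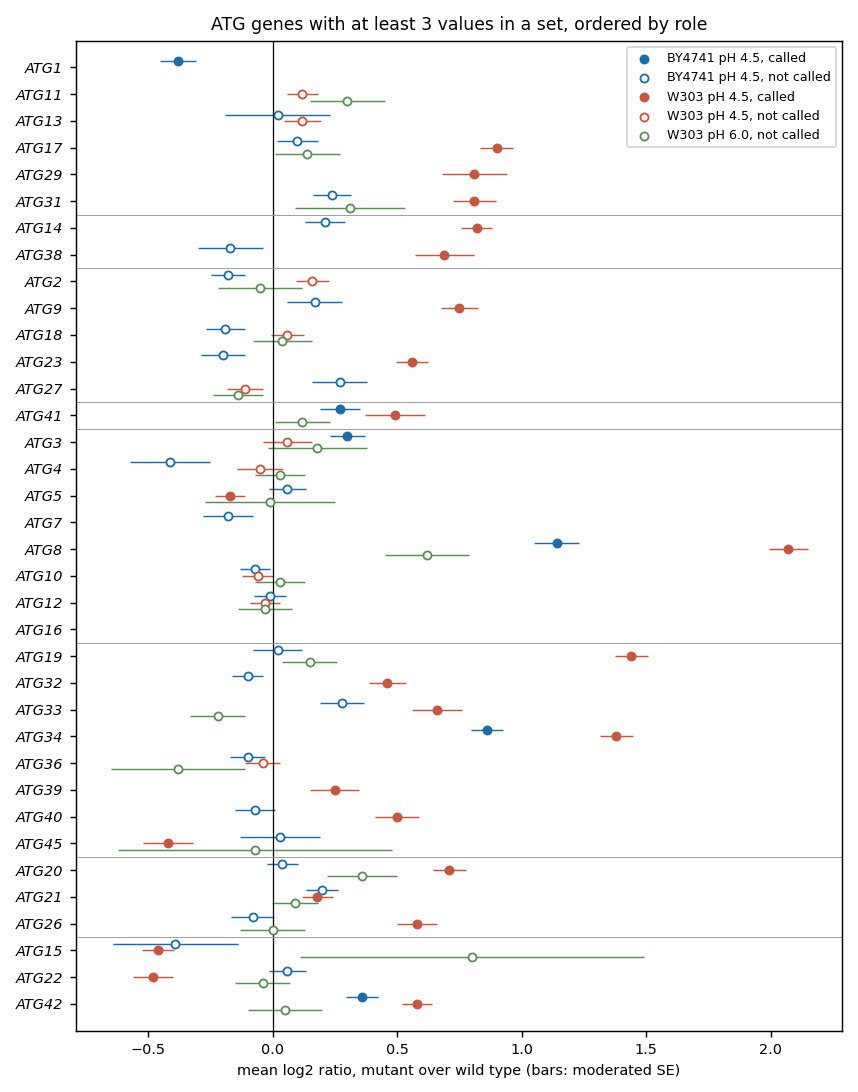
Mean log2 ratio of each ATG gene with at least 3 values in a set, with limma's moderated standard error as the bar; filled points were called and open points were not. Filled red points, the W303 pH 4.5 set, lie mostly right of 0 and reach 2.07 for ATG8.

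The Atg1 kinase complex starts autophagy. Of its genes, 3 of 5 tested were higher in the W303 pH 4.5 set, and 1 of 4 was lower in BY4741, beside 36.1% and 15.4% of all genes. ATG1 encodes the kinase itself. In BY4741 its ratios were -0.47, -0.23, -0.33 and -0.51 on replicates 1 to 4, all below 0 with either dye. The mean fell by 0.38 ± 0.072 on the log2 scale (SE, n = 4 arrays, adjusted p = 0.01). W303 gave 1 value at each pH, 0.67 on replicate 3 at pH 4.5 and -0.07 on replicate 4 at pH 6.0, which allow no test. ATG17, which encodes the scaffold that gathers the complex during starvation, had ratios of 0.74, 1.02, 0.86 and 0.97 in the W303 pH 4.5 set. Its 3 values in BY4741 were -0.05, 0.20 and 0.13, and those at pH 6.0 were 0.24, -0.24, 0.34 and 0.24. The W303 arrays at pH 4.5 thus lay above all others, with a mean of 0.90 ± 0.067 (SE, n = 4 arrays, adjusted p = 7.3e-06).

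ATG31 and ATG29, which encode the partners of Atg17 in its scaffold, were called with it in the W303 pH 4.5 set. ATG31 had a mean of 0.81 ± 0.086 (SE, n = 4 arrays) and ATG29 one of 0.81 ± 0.13 (SE, n = 3 arrays). ATG29 overlaps the gene SET6 in the annotation, so its ratio is uncertain where a probe could read both, and it is the 1 member with an overlapping gene. Its 2 values at pH 6.0 were 0.61 on replicate 1 and 3.68 on replicate 3, the array that stood apart. ATG13, which encodes the regulatory subunit that TORC1 phosphorylates, was not called in the W303 pH 4.5 set (mean 0.12). ATG11, which encodes the scaffold of selective autophagy, also had a mean of 0.12 there and was not called.

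Phosphatidylinositol 3-kinase complex I marks the membrane where the autophagosome forms. Both members that are specific to it were higher in the W303 pH 4.5 set, beside 36.1% of all genes. ATG14, which encodes the subunit that directs the complex to that site, had ratios from 0.70 to 0.91 and a mean of 0.82 ± 0.062 (SE, n = 4 arrays, adjusted p = 7.7e-06). ATG38, which encodes a linker subunit, had a mean of 0.69 ± 0.12 (SE, n = 3 arrays, adjusted p = 0.0011). Neither was called in BY4741, where the means were 0.21 and -0.17. At pH 6.0 each had 1 value, 0.19 for ATG14 and 0.14 for ATG38.

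Atg9 is the transmembrane protein of the vesicles that seed the autophagosome. In the W303 pH 4.5 set, ATG9 had a mean of 0.75 ± 0.073 (SE, n = 3 arrays, adjusted p = 5.6e-05). ATG23, which encodes a peripheral membrane protein that helps Atg9 move, had one of 0.56 ± 0.064 (SE, n = 4 arrays, adjusted p = 7.3e-05). The other 3 members of this group were not called in any set. They were ATG27, which also acts in Atg9 transport, and ATG2 and ATG18, which act together in lipid transfer to the growing membrane, and their means in the W303 pH 4.5 set ran from -0.11 to 0.16. ATG41, whose product interacts with Atg9, was called in both sets at pH 4.5, with means of 0.27 ± 0.08 in BY4741 (SE, n = 4 arrays, adjusted p = 0.042) and 0.49 ± 0.12 in W303 (SE, n = 4 arrays, adjusted p = 0.0054). In the latter set its ratios were 0.76, -0.03, 0.58 and 0.64, with the low value on the 1 array that carried the mutant in Cy3. The call in BY4741 ended when any 1 of replicates 1, 2 or 3 was left out, with adjusted p between 0.092 and 0.13, and with array weights.

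A pair of linked conjugation systems attach Atg12 to Atg5 and Atg8 to phosphatidylethanolamine. ATG8 stood out among their genes. Its ratios in BY4741 were 1.11, 1.40, 1.14 and 0.90. In the W303 pH 4.5 set they were 1.98, 2.33, 1.92 and 2.06, and at pH 6.0 they were 1.01, 0.82, 0.09 and 0.55. All 12 values were above 0, and the W303 arrays at pH 4.5 did not overlap with either of the other sets. The means were 1.14 ± 0.089 in BY4741 (SE, n = 4 arrays, adjusted p = 0.0005) and 2.07 ± 0.077 in the W303 pH 4.5 set (SE, n = 4 arrays, adjusted p = 1.4e-07). By mean ratio ATG8 ranked 58th of 5461 genes in the first and 47th of 5501 in the second. At pH 6.0 the mean was 0.62 ± 0.17 (SE, n = 4 arrays), which was not called (adjusted p = 0.12). Without replicate 3, the array that stood apart, it was 0.79 and was called (adjusted p = 0.013). A called ratio of at least 2-fold was reached by ATG8 among the members in BY4741, beside 1.45% of all genes, and by ATG8, ATG19 and ATG34 in the W303 pH 4.5 set, beside 4.84%.

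The enzymes that act on Atg8 and the proteins of the Atg12 system had smaller ratios. ATG3, the Atg8 conjugating enzyme, was called in BY4741 with ratios from 0.14 to 0.41 and a mean of 0.30 ± 0.071 (SE, n = 4 arrays, adjusted p = 0.022). That call ended without replicate 1, 2 or 4 (adjusted p 0.06 to 0.069). ATG3 had a mean of 0.06 in the W303 pH 4.5 set and was not called. ATG4, the protease that processes Atg8, and ATG10 and ATG12 were called in no set, and neither was ATG7, the shared activating enzyme, which was tested in BY4741 alone. ATG5 was lower in the W303 pH 4.5 set, with ratios of -0.10, -0.14, -0.20 and -0.24 and a mean of -0.17 ± 0.059 (SE, n = 4 arrays, adjusted p = 0.029). It had 0.26, 0.02, 0.01 and -0.06 in BY4741, around 0, and spread from -0.91 to 0.72 at pH 6.0. The call on ATG5 ended without replicate 3 (adjusted p = 0.093) or 4 (adjusted p = 0.15), and with a dye term (adjusted p = 0.058).

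**Figure D3:**
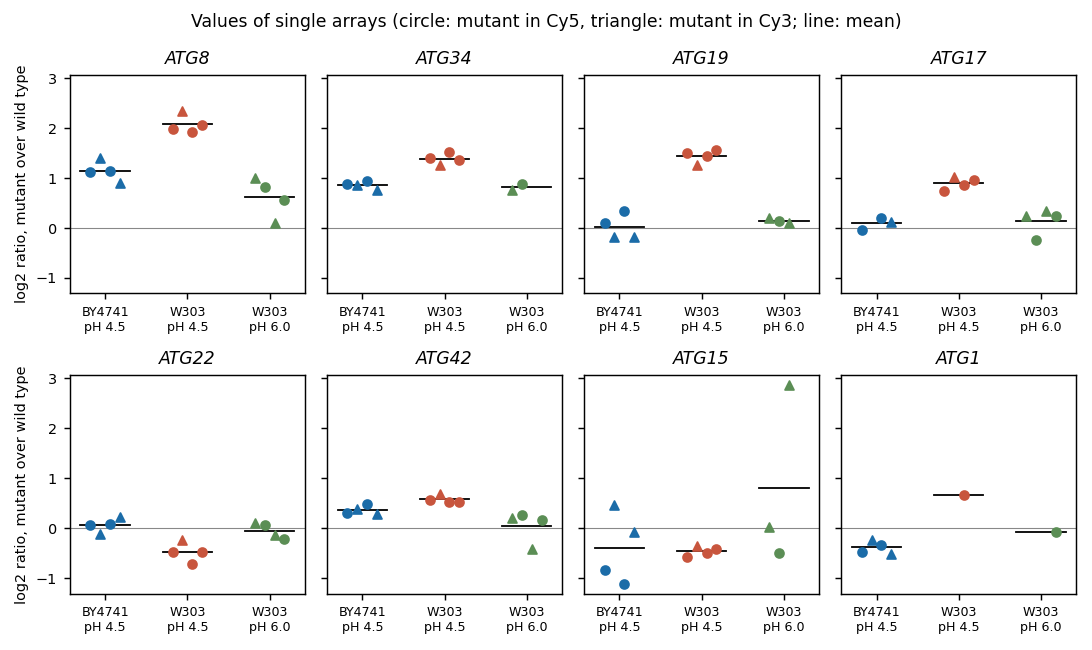
Log2 ratio of mutant over wild type on single arrays for 8 ATG genes in the 3 sets; circles are arrays with the mutant in Cy5, triangles arrays with the mutant in Cy3, and the line is the mean. ATG8, ATG19 and ATG17 are highest on the 4 W303 arrays at pH 4.5, and ATG15 in BY4741 splits between circles below and triangles higher up.

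Selective autophagy uses receptors that tie a cargo to Atg8. The 8 genes of this group are such receptors and ATG33. In the W303 pH 4.5 set 6 of the 8 were higher and 1 was lower, beside 36.1% and 33.1% of all genes. ATG19 had ratios of 1.50, 1.26, 1.45 and 1.55 there. In BY4741 it had 0.09, -0.17, 0.35 and -0.17, and at pH 6.0 it had 0.20, 0.15 and 0.10 on replicates 1 to 3. The 4 W303 arrays at pH 4.5 lay far above all 7 others, and the mean was 1.44 ± 0.067 (SE, n = 4 arrays, adjusted p = 4.4e-07). In BY4741 its sign followed the dye, and the mean of 0.02 was not called (adjusted p = 0.87).

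ATG34 is the neighbour of ATG19 on the chromosome and encodes a related receptor for alpha-mannosidase. Its ratios were 0.88, 0.85, 0.94 and 0.75 in BY4741. They were 1.40, 1.25, 1.52 and 1.35 in the W303 pH 4.5 set, and 0.77 and 0.87 on replicates 1 and 2 at pH 6.0. All 10 values were above 0, and the W303 pH 4.5 set did not overlap with the others. The mean was 0.86 ± 0.063 in BY4741 (SE, n = 4 arrays, adjusted p = 0.00043), a 1.81-fold ratio, and 1.38 ± 0.065 in the W303 pH 4.5 set (SE, n = 4 arrays, adjusted p = 4.4e-07), a 2.61-fold ratio. In BY4741 the 4 values of ATG34 lay above all 4 of ATG19, and the difference between the 2 genes was not tested.

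The other genes of the group had smaller ratios. ATG33, which acts in the removal of mitochondria, had 0.79, 0.21, 0.78 and 0.85 in the W303 pH 4.5 set and a mean of 0.66 ± 0.10 (SE, n = 4 arrays, adjusted p = 0.0005). It had 0.37, 0.14, 0.53 and 0.09 in BY4741, above 0 on every array but not called (adjusted p = 0.052), and -0.10, -0.10, -0.18 and -0.49 at pH 6.0, below 0 on every array and not called (adjusted p = 0.36). ATG32, the mitophagy receptor, had a mean of 0.46 in the W303 pH 4.5 set. ATG40 and ATG39, receptors for the endoplasmic reticulum and nuclear envelope, had means of 0.50 (n = 3) and 0.25 there. The call on ATG39 was close to the threshold (adjusted p = 0.048) and ended under 6 of the 12 alternatives. ATG36, the receptor for peroxisomes, was called in no set.

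ATG45, the receptor for glycogen, ran the other way in the W303 pH 4.5 set. Its ratios were -0.55, -0.62, -0.51 and -0.004, with a mean of -0.42 ± 0.10 (SE, n = 4 arrays, adjusted p = 0.0049). With array weights, which favour replicate 4 there, the mean was -0.23 and was not called (adjusted p = 0.06). In BY4741 its ratios were -0.27, 0.44, -0.42 and 0.36, with the sign of the dye. At pH 6.0 they were -0.21, -1.69, 1.95 and -0.32, so 2 arrays set the spread.

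ATG20, ATG21 and ATG26 encode a sorting nexin, a phosphoinositide-binding protein and a sterol glucosyltransferase. All 3 were called higher in the W303 pH 4.5 set and none in BY4741, beside 36.1% and 15.9% of all genes. ATG20 had 0.56, 0.83, 0.75 and 0.68, against -0.08, 0.12, 0.04 and 0.08 in BY4741 and 0.34, 0.78, 0.05 and 0.28 at pH 6.0. The means were 0.71 ± 0.065 (SE, n = 4 arrays, adjusted p = 2.3e-05) in the W303 pH 4.5 set and 0.36 ± 0.14 (SE, n = 4 arrays, adjusted p = 0.24) at pH 6.0. ATG26 had 0.67, 0.32, 0.54 and 0.78, and its values in BY4741 (-0.36 to 0.06) and at pH 6.0 (-0.39 to 0.23) lay below these. ATG21 had means of 0.20 in BY4741 (adjusted p = 0.055) and 0.18 in the W303 pH 4.5 set (adjusted p = 0.029), so the call separates values that hardly differ, and it ended without replicate 2, 3 or 4.

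The genes of the last step, inside the vacuole, were split. ATG42 encodes a serine carboxypeptidase of the vacuole. It had 0.30, 0.40, 0.48 and 0.29 in BY4741 and 0.58, 0.68, 0.53 and 0.52 in the W303 pH 4.5 set. At pH 6.0 it had 0.20, 0.27, -0.42 and 0.17, with replicate 3 as the low value. The means were 0.36 ± 0.065 (SE, n = 4 arrays, adjusted p = 0.0082) in BY4741 and 0.58 ± 0.06 (SE, n = 4 arrays, adjusted p = 4.5e-05) in the W303 pH 4.5 set. The arrays of these sets did not overlap, but limma did not call the difference between them (0.21 ± 0.14, SE, adjusted p = 0.29).

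ATG22 and ATG15 were lower in the W303 pH 4.5 set. ATG22 encodes a permease that returns amino acids from the vacuole to the cytosol. Its ratios were -0.48, -0.24, -0.71 and -0.47, with a mean of -0.48 ± 0.079 (SE, n = 4 arrays, adjusted p = 0.00069), while BY4741 (0.06, -0.12, 0.08 and 0.23) and pH 6.0 (0.12, 0.07, -0.14 and -0.22) lay around 0. ATG15 encodes the lipase that opens autophagic bodies. It had -0.57, -0.34, -0.49 and -0.42, with a mean of -0.46 ± 0.063 (SE, n = 4 arrays, adjusted p = 0.00023). In BY4741 it had -0.83, 0.47, -1.11 and -0.07, low on both arrays with the mutant in Cy5, and at pH 6.0 it had 0.03, -0.50 and 2.87 on replicates 1 to 3, of which the high value was on the array that stood apart.

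The sign of a ratio followed the dye in some members. Among genes with 4 values in BY4741, 4 of 27 ATG genes (ATG13, ATG19, ATG26 and ATG45) had 1 sign on both arrays with the mutant in Cy5 and the other sign on both with Cy3, beside 13.9% of all genes. At pH 6.0, with the same balance of dyes, this held for 1 of 17 members (ATG4), beside 12.9%. The W303 pH 4.5 set is unbalanced, with the mutant in Cy3 on replicate 2 alone, and 3 of 29 members there (ATG18, ATG27 and ATG41) had the opposite sign on that array to the other 3, beside 7.6% of all genes. In BY4741 the mean of ATG15 was -0.97 with the mutant in Cy5 and 0.20 with Cy3, and that of ATG13 was -0.46 and 0.50. ATG8 and ATG34 were close under both dyes, at 1.13 and 1.15 for ATG8 and 0.91 and 0.80 for ATG34. With dye orientation as a term in the fit, 13 ATG genes were called in BY4741, or 40.6% of the members, beside 43.9% of all genes.

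**Figure D4:**
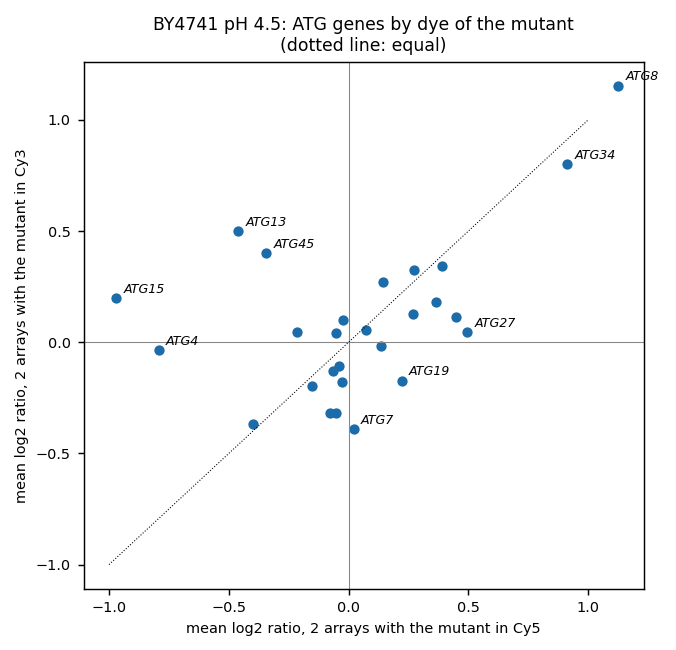
Mean log2 ratio of each ATG gene with 4 values in BY4741 at pH 4.5, for the 2 arrays with the mutant in Cy5 (horizontal axis) and the 2 with the mutant in Cy3 (vertical axis); the dotted line marks equal values. ATG8 and ATG34 lie near the line, and ATG15, ATG13, ATG4 and ATG45 lie far above it.

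The difference between backgrounds, a contrast within 1 fit of all 12 arrays, was tested in 22 ATG genes with at least 3 values in every set. It was called in 6 of them, or 27.3%, against 20.4% of all 4755 genes tested. The mutant over wild-type ratio was higher in W303 than in BY4741 at pH 4.5 for ATG19, by 1.42 ± 0.13 on the log2 scale (SE, adjusted p = 4.6e-05), for ATG8 by 0.93 ± 0.18 (adjusted p = 0.0055) and for ATG17 by 0.80 ± 0.14 (adjusted p = 0.0045). ATG20 differed by 0.67 ± 0.14 (adjusted p = 0.0073) and ATG26 by 0.66 ± 0.15 (adjusted p = 0.012). ATG22 was the member with a lower ratio in W303, with a difference of -0.54 ± 0.12 (adjusted p = 0.012). Higher differences made up 22.7% of the members and 10.9% of all genes, lower ones 4.55% and 9.55%, and the median difference was 0.21 beside 0.02.

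The ratios of all genes were spread more widely in the W303 pH 4.5 set than in BY4741, as the standard deviations above show. When the arrays were scaled to 1 spread, the difference of ATG8 became 0.27 and was not called (adjusted p = 0.43). The other 5 differences were called under each alternative that tested the gene, where ATG17 and ATG19, with 11 values each, went untested when values on all arrays were needed and without some of the arrays. In a fit of the 2 sets at pH 4.5 alone, which tests 30 members, ATG34 also differed, by 0.53 ± 0.087 (SE, adjusted p = 0.0017), and 15 differences were called, beside 38.1% of all genes.

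The effect of pH was tested within W303 in the same 22 genes. It was called in 7, or 31.8%, against 24.0% of all genes. This comparison and that of backgrounds share the 4 W303 arrays at pH 4.5, so a high or low value there moves both. At pH 6.0 the ratio was lower than at pH 4.5 for ATG8, with a difference of -1.46 ± 0.18 on the log2 scale (SE, adjusted p = 0.00024), for ATG19 with -1.29 ± 0.14 (adjusted p = 0.00013) and for ATG33 with -0.88 ± 0.16 (adjusted p = 0.0021). ATG17 had a difference of -0.75 ± 0.13 (adjusted p = 0.0023), ATG26 one of -0.58 ± 0.15 (adjusted p = 0.016) and ATG42 one of -0.52 ± 0.14 (adjusted p = 0.017). ATG22 was the member with a higher ratio at pH 6.0, by 0.43 ± 0.12 (adjusted p = 0.024). Lower differences made up 27.3% of the members and 13.2% of all genes, higher ones 4.55% and 10.7%, and the median difference was -0.16 beside -0.02. Those of ATG8, ATG19, ATG33 and ATG17 were called under each alternative that tested the gene, with the same gaps for ATG19 and ATG17, while ATG26, ATG42 and ATG22 lost their calls under at least 1, with arrays scaled to 1 spread among them (adjusted p 0.057, 0.08 and 0.092).

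**Figure D5:**
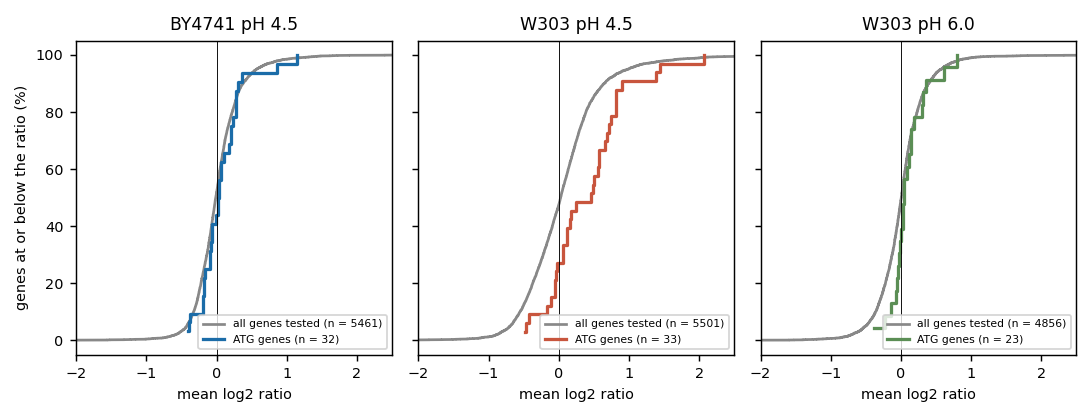
Share of genes at or below a given mean log2 ratio (percent, vertical axis) for the ATG genes tested and for all genes tested in each set. The curves lie close in BY4741 and in the W303 pH 6.0 set, and the ATG curve lies to the right in the W303 pH 4.5 set, where the medians are 0.46 and 0.03.

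Of 9 measured genes for vacuolar hydrolases, which process the cargo of the pathway, 6 of 8 tested were higher in BY4741 and 6 of 9 in the W303 pH 4.5 set. AMS1, which encodes the alpha-mannosidase that Atg34 and Atg19 carry, had means of 1.66 ± 0.071 in BY4741 and 2.03 ± 0.083 in the W303 pH 4.5 set (SE, n = 4 each). APE1, which encodes aminopeptidase I, had 0.86 and 1.67, and PRB1, which encodes proteinase B, had 0.85 and 1.82. APE3, an aminopeptidase gene, was lower in both at -0.90 and -0.63, and CPS1, a carboxypeptidase gene, was lower in the W303 pH 4.5 set at -1.12. At pH 6.0, PRB1 was higher (0.67, adjusted p = 0.044) and APE3 lower (-0.85, adjusted p = 0.035). Both calls ended without replicate 1, 2 or 4, and that of PRB1 also with at least 2 values, with arrays scaled to 1 spread and with a dye term. The shares of all genes called higher were 15.9% in BY4741, 36.1% in the W303 pH 4.5 set and 1.92% at pH 6.0.

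Among 7 other partners in phosphatidylinositol 3-kinase complexes and sorting, 3 were higher and 2 lower in the W303 pH 4.5 set, close to the shares of all genes (36.1% and 33.1%). VPS15, which encodes the regulatory kinase subunit, had a mean of 0.62 (n = 3), VPS38 one of 0.49 and SNX4, the sorting nexin partner of Atg20, one of 0.48. HSV2, a phosphoinositide-binding protein gene, was lower at -0.49 and VAC8, which encodes a vacuole membrane protein, at -0.24. VPS30, whose product sits in the same complex as Atg14, was called in no set, with means of -0.18, 0.15 and -0.01. VAC8 was the 1 gene of the list called in BY4741, where it was lower at -0.44.

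Among genes for the kinases and phosphatases that govern autophagy, 4 of 19 were lower in BY4741 and the other 15 were not called, while 10 of 20 were higher and 2 lower in the W303 pH 4.5 set. The shares of all genes were 15.4% lower in BY4741 and 36.1% higher and 33.1% lower in the W303 pH 4.5 set. Of the 4 lower genes in BY4741, TOR2, GTR2 and TPK3 lost their calls without replicate 4, among others, and SCH9 was called under every alternative. The difference between backgrounds was called in 7 of 17, all with the higher ratio in W303, beside 10.9% of all genes. BCY1, which encodes the regulatory subunit of protein kinase A, had a mean of 0.52 ± 0.067 in the W303 pH 4.5 set and 0.15 in BY4741, where it was not called, a difference of 0.38 ± 0.11 (SE, adjusted p = 0.03). SCH9, which encodes a kinase downstream of TORC1, was lower in both, at -0.65 and -0.49. Of the transcription regulators of ATG genes, 1 of 11 was higher and 1 lower in BY4741, and 7 of 10 were higher in the W303 pH 4.5 set, beside 36.1% of all genes. The lower gene in BY4741, RPH1, lost its call without any 1 of the arrays. GCN4, the activator of amino acid synthesis genes, was called in both, at 0.56 and 0.68. GAT1 and GLN3, activators of nitrogen-repressed genes, had 0.61 and 0.45 in the W303 pH 4.5 set. SIN3, URE2, PHO23 and RPD3 were the other higher genes there, so the higher genes of this list were not activators alone. UME6, a repressor of ATG8, was called in no set, with means of -0.07, 0.03 and -0.15.

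For membrane tethering and fusion with the vacuole, 6 of 13 genes were higher and 4 lower in the W303 pH 4.5 set, and 1 of 14 was higher and 2 lower in BY4741, where 15.9% and 15.4% of all genes were. The first split is near that of all genes, 36.1% higher and 33.1% lower. YPT1, a Rab GTPase gene, had 0.54 and PEP5, which encodes a subunit of the vacuolar tethering complexes, had -0.57 in the former. Vacuolar amino acid transporter genes, with 7 tested in both sets at pH 4.5, were higher in 2 and lower in 1 in BY4741 and split 3 to 3 in W303. The 3 calls in BY4741, on AVT7, AVT3 and AVT1, each ended when single arrays were left out (2, 3 and 4 of the arrays). At pH 6.0 the medians were 0.01 for tethering, 0.08 for transporters, 0.07 for kinases and phosphatases and 0.09 for the transcription regulators.

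Markers of the general stress response had their highest ratios in the same set as ATG8. In the W303 pH 4.5 set, 20 of 22 were higher and 1 lower, beside 36.1% and 33.1% of all genes. The median there was 1.86, with array medians from 1.61 to 1.81. In BY4741, 7 of 22 were higher and 1 lower, beside 15.9% and 15.4% of all genes, with a median of 0.43 and array medians from -0.19 to 1.03. At pH 6.0, 6 of 19 were higher, beside 1.92% of all genes, with a median of 0.44 and array medians from 0.25 to 0.68. At pH 6.0 the 4 of these genes that were run under the alternatives (HSP12, MSC1, GLK1 and PGM2) lost their calls without replicate 1, 2 or 4. HSP12, a small heat shock protein gene, had means of 2.13, 4.17 and 2.16. The difference between backgrounds was called higher in 14 of 19, beside 10.9% of all genes. That between pH 6.0 and pH 4.5 was called lower in 15 of 19, beside 13.2%. Mating-type genes, read as markers of the cells, were split. In the W303 pH 4.5 set 3 of 6 a-type genes were higher and 3 lower, beside 36.1% and 33.1% of all genes. Of 3 alpha-type genes tested there the pheromone gene MF(ALPHA)1 was higher (3.06 ± 0.11, SE, n = 3 arrays), SAG1 was lower (-0.33, adjusted p = 0.042) and MF(ALPHA)2 was not called (-0.16). The call on SAG1 ended with a dye term and without replicate 2, 3 or 4. The part of either list in the ATG ratios was not tested, and in these bulk cultures a change in the mix of cells and a change of RNA per cell cannot be told apart.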

How the data were processed

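Values were the authors' deposited processed ratios, 1 per open reading frame and array, read as the log2 ratio of Cy5 over Cy3; the method of normalisation, the filter, the base of the logarithm and a genome build are not given in the sources used here. RNA was reverse transcribed with a poly-dT primer into aminoallyl cDNA and coupled to the dyes, per the labels' protocols. Array medians lie within 0.035 of 0. Signs were turned on arrays with the mutant in Cy3. Of 11 pairs of arrays with opposite orientation within a set, 10 correlated negatively as deposited. Names came from RefSeq locus tags, matched by 5457 of 5994 rows, while 537 stayed unmatched. No sequence was used.

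The main fit used limma 3.58.1 in R 4.3.3, with 1 mean per gene and set, at least 3 values, empirical Bayes moderation and Benjamini-Hochberg adjustment over all genes tested. One-class SAM, which the design text names, was an alternative. Differences between sets were contrasts in 1 fit of 12 arrays. All tests are two-sided, and the fit was tested on simulated data. Alternatives changed the minimum of values, centring, scaling, dye term, array weights, moderation, replicate block and arrays used. To look for pairing, each gene's mean in a set was taken off its values in that set. The deviations left on same-numbered arrays of different sets correlated between -0.40 and 0.21, with 3 of 12 pairs above 0.1. The numbers were therefore not taken as pairs. Members given on every array were those called in all 3 sets, called at 2-fold or more, called lower, or with a called difference. Of the other lists, at most 4 called genes per set, with the deleted genes, were eligible. VPS30, UME6, MF(ALPHA)2, URE2, PHO23 and RPD3 were added after their values were seen. Members and lists were chosen with earlier results of these data known. The values of 1 gene of the lists are not reported here.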

Additional observations from a re-analysis of the deposited data

Results flagged for a closer look

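On 3 of 73 combinations of an ATG gene and a set with 4 values, 1 array lay far from the other 3, and chance flags about 1 in 20. ATG33 in W303 at pH 4.5 had 0.21 on replicate 2, against 0.78 to 0.85 on the others. In W303 at pH 6.0, replicate 3 gave 0.25 for ATG12, against -0.16 to -0.10, and -0.42 for ATG42, against 0.17 to 0.27.

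The ratio of mutant over wild type differed between sets by limma's test of the difference itself in 13 cases. Between W303 and BY4741 at pH 4.5 the log2 differences were 1.42 for ATG19, 0.93 for ATG8, 0.80 for ATG17, 0.67 for ATG20, 0.66 for ATG26 and -0.54 for ATG22. Between pH 6.0 and pH 4.5 in W303 they were -1.46 for ATG8, -1.29 for ATG19, -0.88 for ATG33, -0.75 for ATG17, -0.58 for ATG26, -0.52 for ATG42 and 0.43 for ATG22. Both comparisons use the same arrays of W303 at pH 4.5.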

How the results depend on the processing

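No called ATG ratio or difference changed sign under an alternative. Calls numbered 6 in BY4741, 23 in W303 at pH 4.5 and 0 at pH 6.0, and leaving out 1 array gave 4 to 7, 16 to 22 and 0 to 1. The shares of all genes called without 1 array were 14.8% to 25.6%, 59.6% to 67.6% and 0.0497% to 10.9%. The 1 call at pH 6.0 is ATG8, made without replicate 3 or with array weights (1 call, mean 0.83, adjusted p = 0.012, beside 12.3% of all genes). A dye term raised the calls in BY4741 to 13 (43.9% of all genes). Differences between backgrounds numbered 6, and 15 in a fit of 2 sets, 10 with at least 2 values and 13 with array weights (47.9% of all genes), with 5 to 7 when an array was left out. Differences between pH values numbered 7, and 4 with arrays scaled to 1 spread (12.2% of all genes). Leaving out an array gave 5 to 8 of them, beside 15.6% to 33.1% of all genes. Without 1 array, medians ran from -0.04 to 0.04 (BY4741), 0.16 to 0.50 (W303 pH 4.5) and 0.01 to 0.05 (W303 pH 6.0). With values on all 4 arrays the median in W303 at pH 4.5 was 0.18, with a dye term 0.22, and at pH 6.0 it was 0.11 with at least 2 values. SAM called 9, 25 and 0, beside 40.3%, 78.1% and 8.22% of all genes. Of the called members, 4 of 6 in BY4741 and 19 of 23 in W303 at pH 4.5 were called under every alternative that tested them. Over all genes, calls at pH 6.0 ran from 2 to 484 when an array was left out. With the replicate block, 6 and 7 ATG differences were called, against 717 and 986 over all genes in place of 971 and 1139. The causes were not tested. Signal over background is unknown.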
